A study of Mus musculus with 6 samples.

Results

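Genes whose normalized count was low in the hearts in which Slc4a4 was low are described here. Slc4a4 encodes NBCe1, the electrogenic sodium bicarbonate cotransporter, and its knockout is the genotype of the mice. A gene was taken when its mean over the 6 libraries was at least 50 normalized counts and the larger value of KOb/c replicates 1 and 3, times 1.3, was below the smallest value of the other 4 libraries, namely the library labelled KOb/c replicate 2 and the 3 WT libraries. Of the 16018 genes listed, 13078 had a mean of at least 50, and 25 of these met the rule, or 0.191%. Slc4a4 and Nppb, which are among the 25, were left out by the rule, so that 23 genes remained. The genes were thus chosen by the measured values of all 6 libraries. Their low values in KOb/c replicates 1 and 3 are therefore a description and were not tested.

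RNAseq was performed on female hearts, 3 from KOb/c and 3 from WT animals, taken at an age of 4 to 5 weeks. KOb/c mice carry a knockout of NBCe1-B and NBCe1-C that is not limited to the heart, and they keep NBCe1-A in the kidney. Mice of both genotypes came from crosses of heterozygous parents on the C57BL/6J background, and the labels name no treatment. Many KOb/c mice die before adulthood, so the hearts are those of animals that lived to this age. Heart muscle genes were abundant in every library, with Tnnt2, the cardiac troponin T gene, between 316154 and 368185 normalized counts.

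A normalized count is the number of reads on a gene after division by the size factor of its library. Values are not scaled to gene length, so levels are compared between libraries and not between genes. Between 41364857 and 49100802 reads were counted on genes per library, and every deposited value was a whole multiple of the value of 1 read, within 0.01 read. That value was taken from the spacing of the low values. For KOb/c replicate 1, where it is close to 1, and WT replicate 2, where the lowest value is 2 reads, a separate automatic search did not apply, so the read counts of these libraries rest on the spacing alone. A single read was worth between 0.887 and 1.04 normalized counts.

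NBCe1-B carries sodium together with bicarbonate into the cell, and in heart muscle it takes part in the control of cell pH. Other proteins of pH control are the sodium proton exchangers, the chloride bicarbonate exchangers and the carbonic anhydrases. Proteins on the list below belong to other systems for the most part: the sarcomere of skeletal muscle, the mitotic spindle, a pacemaker channel, peptide and proton receptors, and enzymes of the cytosol and matrix.

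Slc4a4 (ENSMUSG00000060961; chr5:88886818-89239653, forward strand) was listed at 264.0, 944.8 and 268.7 normalized counts in the libraries labelled KOb/c replicates 1, 2 and 3, while WT replicates 1, 2 and 3 had 675.1, 822.2 and 788.8. At 1.24 times the WT mean, the library labelled KOb/c replicate 2 stood above each WT library. The smallest of these 4 values was 2.51 times the larger value of KOb/c replicates 1 and 3. This ratio, called the gap ratio below, is what the rule holds to a minimum of 1.3. The 95% interval given with it is an exact interval for the ratio of 2 read counts. This interval covers counting error only, not the spread between animals and not the choice of genes and libraries by the same ratio. It was 2.19 to 2.89 for Slc4a4.

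The same rule was applied to each of the 15 pairs of libraries. The largest number, 107 genes, was low in KOb/c replicate 1 together with WT replicate 1. There were 37 genes low in KOb/c replicate 2 with WT replicate 2, 36 in KOb/c replicates 1 and 2, and 29 in WT replicates 1 and 3. The 25 genes of KOb/c replicates 1 and 3 came next, so that 4 of the 14 other pairs had more genes and 10 had fewer. Numbers for the remaining pairs were 17 in WT replicates 1 and 2, 12 in KOb/c replicate 1 with WT replicate 2, and 5 in KOb/c replicate 1 with WT replicate 3. There were 4 in KOb/c replicates 2 and 3 and 3 in WT replicates 2 and 3. Each of KOb/c replicate 2 with WT replicate 1, KOb/c replicate 3 with WT replicate 1 and KOb/c replicate 3 with WT replicate 3 had 2. KOb/c replicate 2 with WT replicate 3 and KOb/c replicate 3 with WT replicate 2 had 1 gene each. Pairs of different genotype thus reached both the highest and the lowest numbers. With the inequality turned round, so that both libraries of a pair are above 1.3 times the largest of the other 4, 28 genes were high in KOb/c replicates 1 and 3, and the other pairs had between 1 and 100.

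**Figure D1:**
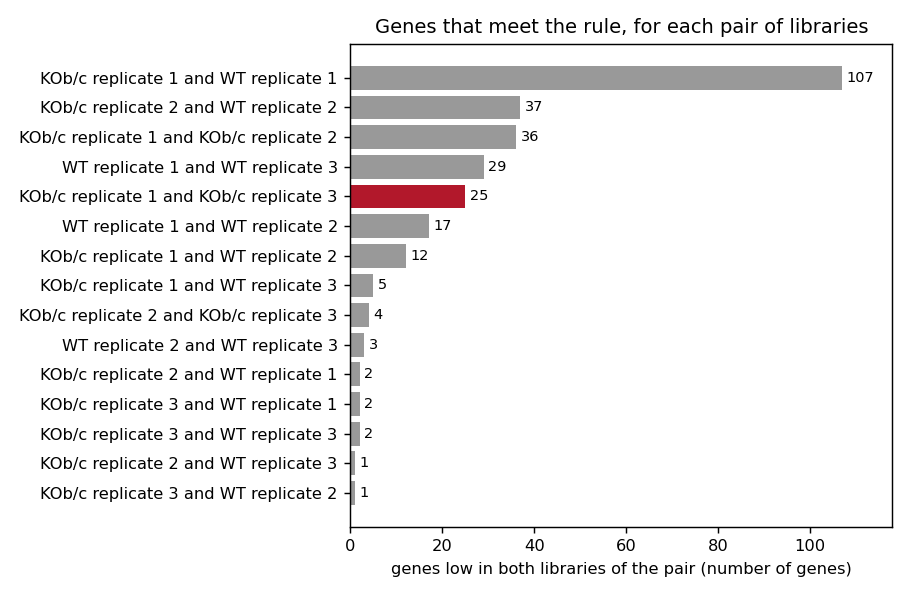
Number of genes, on the horizontal axis, that met the rule for each of the 15 pairs of libraries, on the vertical axis, with the pair in which Slc4a4 was low in red. That pair has 25 genes, below the 107, 37, 36 and 29 of 4 other pairs and above the remaining 10.

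Of the 23 genes, 18 are named protein-coding or tRNA genes and 5 are gene models with no descriptive name. The gap ratio ran from 1.3 to 6.25, and it was below 1.5 in 16 of the 23. At the edge of the rule, Gm826, Zdhhc2 and Pou2f2 were just inside with gap ratios of 1.3, 1.306 and 1.318, and C430049B03Rik, Clec12a and Cdc20 were just outside with 1.3 (below the factor before rounding), 1.299 and 1.296. The lower bound of the counting interval was above 1 for 18 genes and above 1.3 for 3. Since the rule chose the genes by this ratio, which the interval does not allow for, nothing is read from these numbers.

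**Figure D2:**
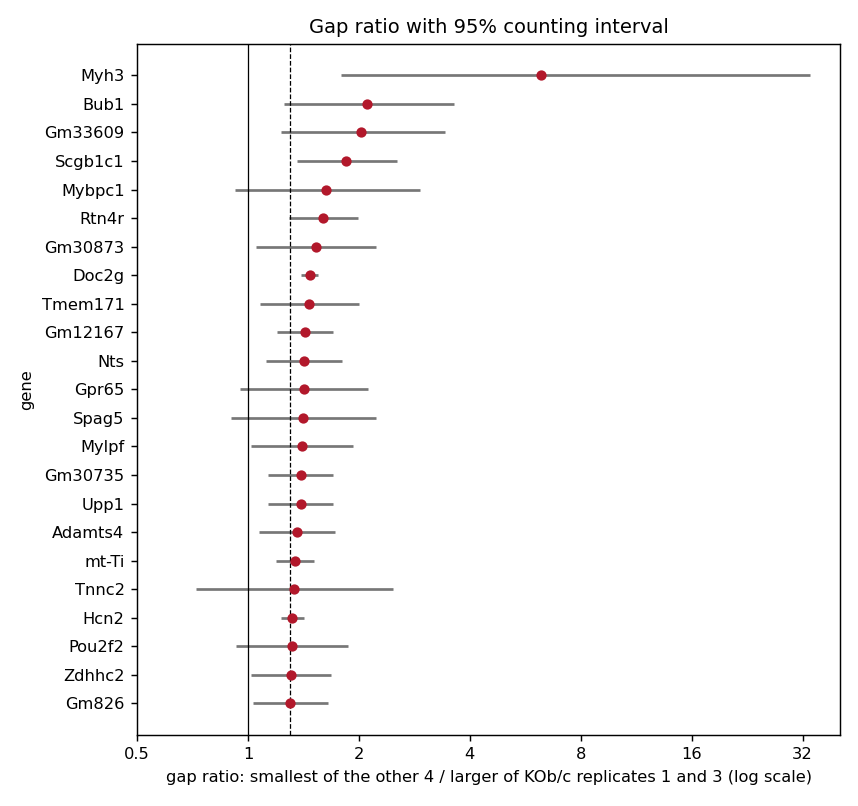
Gap ratio of each of the 23 genes (points, log scale) with its exact 95% counting interval (lines). The solid line marks 1 and the dashed line the factor of 1.3 in the rule; the intervals of Myh3, Scgb1c1 and Doc2g lie above the dashed line, and 5 intervals reach below 1.

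The widest gap was that of Myh3, 1 of 4 genes of the skeletal muscle sarcomere. Sarcomeres are built of thick filaments of myosin and thin filaments of actin with troponin, and skeletal muscle uses its own members of these families. The 4 genes Myh3, Mybpc1, Mylpf and Tnnc2 encode the embryonic myosin heavy chain, the slow skeletal myosin-binding protein C, the fast skeletal regulatory light chain and the fast skeletal troponin C. All 4 were highest in the library labelled KOb/c replicate 2. The 250 bases before the start site of 3 of them, and of Hcn2, which is described further on, are given 5′ to 3′ from RefSeq (GRCm38.p6), since these are the stretches that could hold the control elements of genes that were high together in 1 library and of the member with the profile closest to that of Slc4a4 at a high count. Capitals mark the letters TATAAA and CAGCTG where a search found them on either strand. The Myh3 stretch is chr11:67078050-67078299 (forward strand), that of Mybpc1 chr10:88605153-88605402 (reverse strand), that of Mylpf chr7:127211358-127211607 (forward strand) and that of Hcn2 chr10:79716384-79716633 (forward strand). The Mybpc1 stretch overlaps an exon of Gm48752, and the Mylpf stretch lies before a RefSeq start site inside the annotated gene. The stretch of the fourth muscle gene, Tnnc2, overlaps its own exons and is not printed.
Myh3: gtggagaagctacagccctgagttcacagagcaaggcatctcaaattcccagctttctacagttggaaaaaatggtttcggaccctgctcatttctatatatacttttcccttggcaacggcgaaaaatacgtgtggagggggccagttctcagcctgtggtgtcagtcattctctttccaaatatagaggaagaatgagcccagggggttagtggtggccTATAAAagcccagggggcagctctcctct
Mybpc1: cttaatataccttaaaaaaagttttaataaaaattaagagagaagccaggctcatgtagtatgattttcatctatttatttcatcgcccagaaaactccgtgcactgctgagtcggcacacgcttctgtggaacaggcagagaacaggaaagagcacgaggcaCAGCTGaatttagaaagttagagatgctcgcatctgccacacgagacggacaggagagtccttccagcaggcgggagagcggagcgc
Mylpf: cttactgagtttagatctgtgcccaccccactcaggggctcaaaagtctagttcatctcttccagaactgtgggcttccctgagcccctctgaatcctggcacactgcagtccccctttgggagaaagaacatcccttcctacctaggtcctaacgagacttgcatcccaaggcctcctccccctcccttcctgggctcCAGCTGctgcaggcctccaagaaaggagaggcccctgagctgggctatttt
Hcn2: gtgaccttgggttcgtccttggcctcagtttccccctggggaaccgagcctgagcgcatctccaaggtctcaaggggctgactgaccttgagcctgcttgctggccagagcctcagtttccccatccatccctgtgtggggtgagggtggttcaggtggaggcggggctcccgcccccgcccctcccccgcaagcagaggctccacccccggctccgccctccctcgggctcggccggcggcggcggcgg

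The letters TATAAA began 29 bases before the start site of Myh3. The letters CAGCTG, the E-box of muscle bHLH factors, began 87 bases before that of Mybpc1 and 51 bases before that of Mylpf. The Tnnc2 stretch held neither, and held CCAAT on the opposite strand 82 bases and GGGCGG 229 bases before the start site. The Hcn2 stretch also held neither. It held GGGCGG, the GC box, on the opposite strand at 3 places, 80, 74 and 36 bases before the start site. In the printed letters each of these reads ccgccc.

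Myh3 (ENSMUSG00000020908; chr11:67078300-67102291, forward strand) was listed at 1.0, 316.3 and 2.7 normalized counts in KOb/c replicates 1, 2 and 3, and at 27.7, 16.6 and 56.7 in WT replicates 1, 2 and 3. These values rest on 1, 306 and 3 reads in KOb/c and on 27, 16 and 55 reads in WT libraries. KOb/c replicates 1 and 3 were lowest, and the library labelled KOb/c replicate 2 was far above all others, at 9.40 times the WT mean. The gap ratio was 6.25 (counting interval 1.79 to 33.48).

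Mybpc1 (ENSMUSG00000020061; chr10:88518279-88605152, reverse strand) was listed at 17.9, 521.0 and 20.4 in KOb/c replicates 1, 2 and 3, and at 60.4, 33.3 and 127.9 in WT replicates 1, 2 and 3. Its gap ratio was 1.63 (0.92 to 2.92). The library labelled KOb/c replicate 2 was at 7.05 times the WT mean, and WT replicate 2 was nearest to the low pair.

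Mylpf (ENSMUSG00000030672; chr7:127208890-127214298, forward strand) was listed at 26.8, 686.4 and 66.5 in KOb/c and at 93.2, 98.8 and 164.0 in WT replicates 1, 2 and 3, with a gap ratio of 1.40 (1.02 to 1.93). Tnnc2 (ENSMUSG00000017300; chr2:164777161-164779967, reverse strand) was listed at 2.0, 307.0 and 19.5 in KOb/c and at 31.8, 26 and 63.9 in WT replicates 1, 2 and 3, with a gap ratio of 1.33 (0.72 to 2.48). The library labelled KOb/c replicate 2 was at 5.79 and 7.57 times the WT mean for these genes. KOb/c replicate 1 was the lowest library for all 4 genes, and WT replicate 3 was the second highest for all 4.

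Without the library labelled KOb/c replicate 2, Myh3 and Tnnc2 would have had means below 50, so they passed the minimum through that library. Likewise, Bub1 passed it through WT replicate 1, and Gm33609 needed both WT replicate 2 and WT replicate 3. For 9 genes the mean of KOb/c replicates 1 and 3 alone was below 50, namely Myh3, Bub1, Gm33609, Mybpc1, Gm30873, Gpr65, Spag5, Mylpf and Tnnc2, and a gene of this level could pass only by being higher elsewhere.

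Some markers of skeletal muscle had a like pattern and others did not. Of a list of 15 markers, Myh4 was not analysed here. In the other 14, the library labelled KOb/c replicate 2 was the highest in 12, with Myh2 highest in WT replicate 3 and Scn4a in KOb/c replicate 1. Mylpf and Tnnc2 are on that list and were chosen for their order. Of the 12 markers apart from them, 10 were highest in the library labelled KOb/c replicate 2, as were 11.3% of the 13078 genes. In 5 of the 12, Myh1, Myh2, Myh8, Tnnt3 and Pvalb, both KOb/c replicates 1 and 3 were below the other 4 libraries, an order found in 10% of the 13078 genes. Acta1, Tnni2, Actn3, Atp2a1, Casq1, Neb and Scn4a did not have it. Myh1, Myh2, Actn3 and Pvalb had means below 50 and are not among the 13078 genes. The shares over those genes are thus not a like background for all 12 markers. The summed level of the list was 12300, 21100 and 9330 normalized counts in KOb/c replicates 1, 2 and 3. In WT replicates 1, 2 and 3 it was 6410, 9850 and 8670. Acta1, the skeletal actin gene that heart muscle also uses, made up a large part of these sums and was lowest in WT replicate 1.

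Myh8, the perinatal myosin heavy chain gene, was listed at 6.9, 2895.5 and 116.2 in KOb/c replicates 1, 2 and 3, and at 294.0, 146.6 and 611.5 in WT replicates 1, 2 and 3. Its highest value was in the library labelled KOb/c replicate 2 and its lowest in KOb/c replicate 1, and the gap ratio was 1.26, under the factor of the rule. Tnnt3, the fast skeletal troponin T gene, had a gap ratio of 1.09, and Atp2a1, the calcium pump of fast skeletal muscle, a value of 0.94. Myh1 and Myh2, fast adult myosin heavy chain genes, had gap ratios of 2.05 and 2.36 but means below 50. No marker in the list was at 0 in a library. Whether skeletal muscle tissue carried with the hearts had a part in the 4 genes was not tested. In these bulk libraries, fewer cells of a type and less RNA per cell cannot be told apart.

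**Figure D3:**
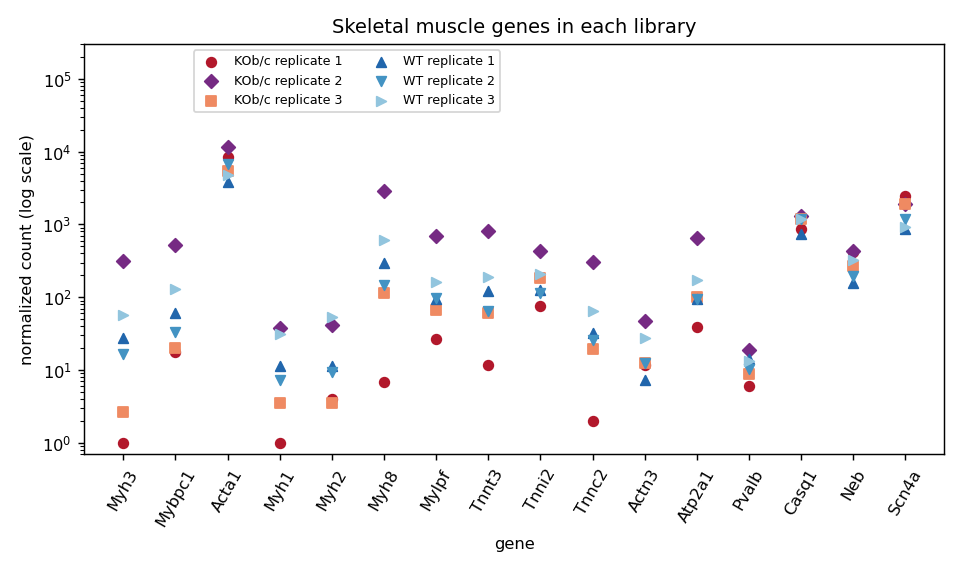
Normalized counts on a log scale (vertical axis) of Myh3, Mybpc1 and the 14 skeletal muscle markers (horizontal axis) in each of the 6 libraries. The library labelled KOb/c replicate 2 is the highest in 12 of the 14 markers and in both other genes; KOb/c replicate 1 is the lowest for Myh3, at 1.0.

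Among the genes outside muscle, 2 encode proteins of mitosis. Bub1 is a kinase of the spindle checkpoint and Spag5 a protein of the spindle and kinetochore. Bub1 (ENSMUSG00000027379; chr2:127801122-127831865, reverse strand) was listed at 16.9, 54.8 and 21.3 in KOb/c and at 147.5, 44.7 and 59.8 in WT replicates 1, 2 and 3. Spag5 (ENSMUSG00000002055; chr11:78301529-78322457, forward strand) was listed at 21.8, 47.6 and 33.7 in KOb/c and at 184.4, 63.4 and 110.3 in WT replicates 1, 2 and 3. WT replicate 1 was the highest library for both. The gap ratio was 2.10 (1.25 to 3.62) for Bub1 and 1.41 (0.90 to 2.23) for Spag5.

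The pattern of these 2 genes differs from that of the muscle genes in which library was high. Of 25 genes of mitosis and DNA replication, 24 were highest in WT replicate 1 and 19 were lowest in KOb/c replicate 1. Over the 13078 genes, 24.3% were highest in WT replicate 1, and 3153 genes were lowest in KOb/c replicate 1. Both KOb/c replicates 1 and 3 were below the other 4 libraries in 9 of the 24 genes other than Bub1, and in 10% of the 13078 genes. Of the 25 genes, Bub1 alone met the rule. Spag5 is not on that list. The summed level was 7620, 7920 and 8170 normalized counts in KOb/c replicates 1, 2 and 3, and for WT replicates 1, 2 and 3 it was 15400, 7720 and 10200. WT replicate 2 was at the level of the KOb/c libraries. By limma, the median log2 fold change of the list between KOb/c and WT was -0.86, beside -0.0043 over all genes tested, and 0 of the 25 passed the adjustment. DESeq2 called 5 of the 25 lower in KOb/c and 0 higher. Over all genes with an adjusted p-value from DESeq2, it called 5.03% lower.

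Hcn2 encodes a pacemaker channel, opened by hyperpolarization and by cyclic AMP, and carries part of the pacemaker current of the heart. It (ENSMUSG00000020331; chr10:79716634-79736108, forward strand) was listed at 1198.9, 1974.5 and 1208.8 in KOb/c and at 1599.1, 1874.2 and 1682.8 in WT replicates 1, 2 and 3. KOb/c replicates 1 and 3 lay close together below the other 4 libraries, among which the library labelled KOb/c replicate 2 was the highest, at 1.15 times the WT mean. The gap ratio was 1.32 (1.23 to 1.42). Among 20 ion channel and related genes, Hcn2 was the sole one to meet the rule, and 12 of the 20 were highest in KOb/c replicate 1, as were 31.5% of the 13078 genes.

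Over the 6 libraries, the log2 values of Hcn2 and Pou2f2 had the highest Pearson correlation with those of Slc4a4 among the 23 genes, 0.982 for both. Gm33609 (0.953), Rtn4r (0.946) and mt-Ti (0.944) followed. Correlations of the 23 genes with Slc4a4 ran from 0.661 for Spag5 to 0.982, with a median of 0.898. Since the rule places the same 2 libraries below the same 4, it fixes much of this likeness. Among all 13078 genes, 28, or 0.214%, had a correlation of at least that of mt-Ti. Between the 23 genes themselves, the median over 253 pairs was 0.824, with the lowest value, 0.280, for Tmem171 and Spag5 and the highest, 0.988, for Hcn2 with Pou2f2 and for Zdhhc2 with Gm30873. These points share their libraries and are given as a description over 6 libraries.

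Doc2g, a member of the double C2 domain family, was the gene with the most reads on the list. It (ENSMUSG00000024871; chr19:4003313-4007005, forward strand) was listed at 1916.4, 3155.0 and 2144.4 in KOb/c and at 3452.3, 3749.5 and 3734.8 in WT replicates 1, 2 and 3. The gap ratio was 1.47 with the narrowest counting interval, 1.39 to 1.55. Here the library labelled KOb/c replicate 2 stood between the low pair and the WT libraries, at 0.87 times the WT mean, so that all KOb/c libraries were below all WT libraries.

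Such an order, with all KOb/c below all WT libraries, was found in 5 of the 23 genes, and in 16.1% of the 13078 genes. The other 4 genes with it were Upp1, Spag5, Gm12167 and Gm826. The rule already sets KOb/c replicates 1 and 3 below WT, so in the 23 genes this order depends on the library labelled KOb/c replicate 2 alone. That library was the lowest of the 4 outside the pair in 30.5% of all genes and in 21.7% of the 23. Nothing is read from these shares. Upp1 is uridine phosphorylase, which breaks down uridine. It (ENSMUSG00000020407; chr11:9118103-9136170, forward strand) was listed at 145.9, 220.2 and 158.7 in KOb/c and at 294.0, 238.0 and 262.9 in WT replicates 1, 2 and 3. Gm12167 was listed at 230.2, 328.7 and 208.4 in KOb/c and at 345.2, 404.4 and 342.3 in WT replicates 1, 2 and 3. The gap ratio was 1.39 for Upp1 and 1.43 for Gm12167.

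The rule requires the library labelled KOb/c replicate 2 to lie above the low pair, and Myh3 and Tnnc2 passed the minimum mean through it, so its place among the 4 libraries of its side is given as a description. It was the highest of the 4 in 9 of the 23 genes, as it was for Slc4a4, inside the WT range in 9 and the lowest in 5. Over all 13078 genes, these shares were 32.3%, 37.2% and 30.5%, and over the 23 they were 39.1%, 39.1% and 21.7%, from which nothing is read. The 9 genes in which it was highest were the 4 muscle genes with Tmem171, Gm30735, Adamts4, Hcn2 and Pou2f2. Within the low pair, KOb/c replicate 1 was below KOb/c replicate 3 in 18 of the 23 genes, or 78.3%, beside 44.5% of all genes. The rule makes 1 of this pair the lowest of the 6 libraries, so all genes are not a like background. Over the 13078 genes, KOb/c replicate 1 was the lowest library in 3153 and KOb/c replicate 3 in 1264. Nothing is read from the order within the pair.

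**Figure D4:**
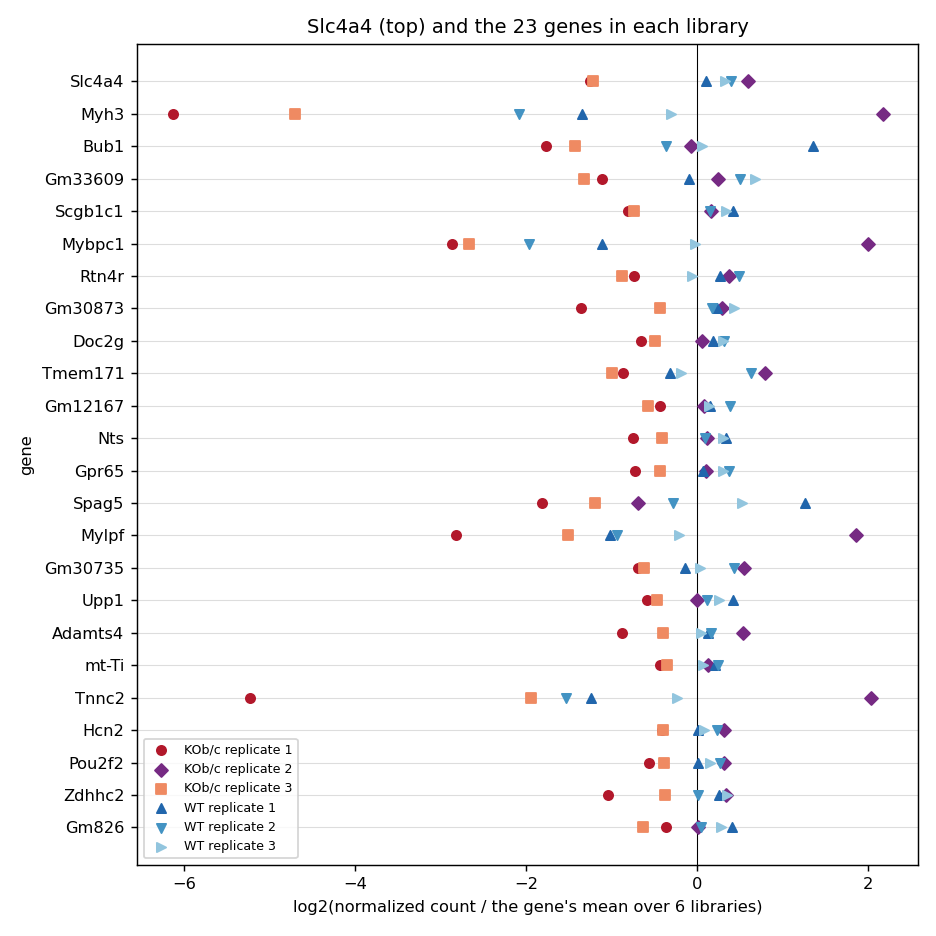
Values of Slc4a4 and the 23 genes (vertical axis) in each library, as log2 of the normalized count over the gene's mean (horizontal axis). KOb/c replicates 1 and 3 (circles and squares) lie to the left in each row by the rule; the library labelled KOb/c replicate 2 (diamonds) is the highest in 9 of the 23 genes.

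Rtn4r, Gpr65 and Nts act in signalling between cells. Rtn4r is the Nogo receptor, which binds myelin inhibitors of axon growth. It (ENSMUSG00000043811; chr16:18127642-18152408, forward strand) was listed at 142.9, 309.1 and 130.4 in KOb/c and at 288.9, 335.8 and 228.9 in WT replicates 1, 2 and 3, with a gap ratio of 1.60 (1.29 to 1.99). Nts is the precursor of the peptide neurotensin. It (ENSMUSG00000019890; chr10:102481756-102490486, reverse strand) was listed at 94.3, 171.6 and 118.8 in KOb/c and at 200.8, 168.4 and 195.9 in WT replicates 1, 2 and 3, with a gap ratio of 1.42 (1.12 to 1.80). In both, the library labelled KOb/c replicate 2 was inside the WT range.

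Gpr65 is a receptor that is activated by extracellular protons and is found mainly in cells of the immune system. It (ENSMUSG00000021886; chr12:98268635-98276644, forward strand) was listed at 34.7, 62.0 and 42.6 in KOb/c and at 60.4, 74.8 and 71.1 in WT replicates 1, 2 and 3. At 35 and 48 reads in the low pair, its gap ratio of 1.42 had a counting interval of 0.95 to 2.12, which includes no gap. The summed level of 12 macrophage markers was 11500 and 12200 in KOb/c replicates 1 and 3 and between 12300 and 13300 in the other 4 libraries. That of 9 lymphocyte and thymus markers was 316 and 498 in the pair and between 326 and 799 in the others, highest in WT replicate 2. Their part in the level of Gpr65 was not tested.

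Pou2f2, the transcription factor Oct-2 of B cells, was listed at 50.6, 93.0 and 56.8 in KOb/c and at 74.8, 89.4 and 82.5 in WT replicates 1, 2 and 3. Its gap ratio of 1.32 had a counting interval of 0.93 to 1.87. Scgb1c1, a secretoglobin, was listed at 58.6, 114.7 and 61.2 in KOb/c and at 137.3, 113.3 and 129.9 in WT replicates 1, 2 and 3. For Scgb1c1 the low pair and the other 4 libraries did not come near each other, with a gap ratio of 1.85 (1.36 to 2.54). Tmem171 was listed at 73.4, 231.6 and 67.4 in KOb/c and at 107.6, 206.9 and 117.6 in WT replicates 1, 2 and 3. Its level in the library labelled KOb/c replicate 2 and in WT replicate 2 was well above that in the other 4 libraries, and the gap ratio was 1.46 (1.08 to 2.00).

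Adamts4 and Zdhhc2 encode enzymes. Adamts4 is a secreted protease that cleaves aggrecan and other proteoglycans of the matrix. It was listed at 86.3, 229.5 and 120.6 in KOb/c and at 173.1, 177.8 and 164.0 in WT replicates 1, 2 and 3, with a gap ratio of 1.36 (1.07 to 1.72). Zdhhc2 attaches palmitate to other proteins. It was listed at 68.5, 178.8 and 109.1 in KOb/c and at 169.0, 142.4 and 180.5 in WT replicates 1, 2 and 3, with a gap ratio of 1.31 (1.02 to 1.68). In both genes the distance between KOb/c replicates 1 and 3 was of the order of the gap itself.

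The mitochondrial tRNA for isoleucine, mt-Ti, was listed at 449.6, 659.5 and 473.6 in KOb/c and at 700.7, 718.3 and 634.2 in WT replicates 1, 2 and 3. Its gap ratio was 1.34 (1.19 to 1.51). The gene is 69 bases long and its annotation overlaps mt-Nd1 on the same strand and mt-Tq on the opposite strand. Reads over the shared bases cannot be told apart from those of these neighbours, and the extent of the overlap was not measured.

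Of the 5 gene models, Gm33609 and Gm30735 are annotated as long intergenic RNAs, Gm30873 and Gm12167 as antisense RNAs, and Gm826 as protein-coding. Gm33609 (ENSMUSG00000104736; chr5:97143026-97149848, forward strand) was listed at 24.8, 63.1 and 21.3 in KOb/c and at 50.2, 75.9 and 85.6 in WT replicates 1, 2 and 3, with a gap ratio of 2.02 (1.23 to 3.42). Gm30735 was listed at 146.9, 347.3 and 155.2 in KOb/c and at 215.1, 320.2 and 243.4 in WT replicates 1, 2 and 3. Gm30873 was listed at 24.8, 77.5 and 47.0 in KOb/c and at 74.8, 71.7 and 85.6 in WT replicates 1, 2 and 3. Gm826 was at the edge of the rule, with 132.0, 171.6 and 110.0 in KOb/c and 226.4, 175.7 and 206.2 in WT replicates 1, 2 and 3. The gap ratio was 1.39 for Gm30735, 1.53 for Gm30873 and 1.3 for Gm826. Gm30873 lies opposite Arnt2.

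Exons of 11 of the 23 genes overlap those of another annotated gene, 9 of them on the opposite strand. Among these, Tnnc2 overlaps Ube2c, Mybpc1 overlaps Gm48752 and Zdhhc2 overlaps Cnot7. Whether the reads were counted by strand is not given in the sources used here. Without strand, reads over the bases that a gene shares with its antisense partner cannot be told apart. The extent of the shared bases was not measured.

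Slc4a4 itself lies on chromosome 5. Within 5 Mb of it, 32 genes had a mean of at least 50, and 0 of them met the rule; the largest gap ratio was 1.108, for Cxcl9, a chemokine induced by interferon. Within 20 Mb, 1 of 142 genes met it, Gm33609, which begins 7.90 Mb beyond the end of Slc4a4. The 23 genes lie on 13 chromosomes, with 4 each on chromosomes 11 and 7 and 3 each on chromosomes 10 and 2. Chromosomes 11 and 7 hold 8.4% and 7.69% of all 13078 genes.

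In features that the rule did not use, the 23 genes had short transcripts, with a median length of 1938 nucleotides for the longest annotated transcript against 3419 for all 13078 genes. Of the 23, 18 were protein-coding (78.3%), beside 94.4% of all genes. The median GC content of the longest transcript was 52.28% against 49.75%. Their level, which the rule used through its minimum mean, was low, with a median of 141.4 normalized counts against 859.2 for all genes. Whether the length and the share of protein-coding genes go with this level was not tested. A correction of each library for transcript length and GC content kept 16 of the 23 genes within the rule; Gm12167, Gm30735, Gm826, Hcn2, Tmem171, Tnnc2 and mt-Ti fell outside it.

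Promoter sequences were found for 19 of the 23 genes, with 21 start sites. The letters CAGCTG were present in 8 of these 21 promoters (38.1%), those of Gm30873, Gpr65, Mybpc1, Mylpf, Nts and Upp1, and in 12.3% of the 12860 promoters of all genes with a mean of at least 50. The letters TATAAA were present in 4 (19%), against 6.65%, and TGANTCA, the AP-1 site, in 4 (19%), against 4.39%. GGAATG, the TEAD site, was found in 4 (19%) against 11%, and AGATAA, the GATA site, in 3 (14.3%) against 5.92%. CCAAT was found in 6 (28.6%) against 34.8%, GGGCGG in 9 (42.9%) against 56.9%, and CACGTG, the E-box of clock factors, in 0 against 8.2%. Both strands were searched over 250 bases, and several start sites of 1 gene can share sequence. These are matches of letters in a window.

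Between KOb/c and WT as labelled, limma with Benjamini-Hochberg adjustment called 0 of 16016 genes (0%) and thus 0 of the 23. At an unadjusted p-value under 0.05 by limma there were 3764 of the 16016 genes, and 11 of the 23. The quasi-likelihood test of edgeR called 0 genes, and DESeq2 called 1587, of which 602 were lower in KOb/c, or 5.03% of those with an adjusted p-value. Of the 15 genes on the list to which DESeq2 gave one, 3 were called lower, Doc2g, Upp1 and Gm12167. Without the library labelled KOb/c replicate 2, limma called 3 genes lower (0.0187%), namely Nppb, Slc4a4 and, of the 23, Doc2g. The rule used the same libraries and set the same pair below WT, so nothing is read from these numbers. The median log2 fold change of the 23 by limma was -0.57, and it was negative for each. The rule largely fixes this sign, since it places KOb/c replicates 1 and 3 below every WT library. Within the 4 muscle genes the sign depended on the tool, with Myh3 at -1.22 by limma and 1.66 by DESeq2. The limma value of Mylpf was -0.09 with a standard error of 0.96.

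Of the 24 lists of cell type markers and pathway genes, 3 held a gene of the 23: skeletal muscle with Mylpf and Tnnc2, mitosis and DNA replication with Bub1, and ion channels with Hcn2. The other 21 lists held none. Among these was the list of bicarbonate and proton transport, the system of NBCe1 itself. Of its 17 genes, 15 were analysed here and 13 had the mean of at least 50 that the rule requires. Both KOb/c replicates 1 and 3 were below the other 4 libraries in 1 of the 15. The same order was found in 9 of 26 interferon-stimulated genes, 6 of 18 genes of antigen presentation, 4 of 12 endothelial and 4 of 12 macrophage markers, beside 10% of the 13078 genes, and none of these met the rule with its factor of 1.3. It was found in 0 genes of 8 lists: atrial myocytes, the conduction system, epicardium and mesothelium, erythroid cells, immediate early genes, the circadian clock, the glucocorticoid response, and collagen and matrix. In the rest of the 21 lists it was found in between 1 and 3 genes.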

How the data were processed

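RNA of 3 KOb/c and 3 WT female hearts was sequenced. According to the submitters' processing notes, Trimmomatic 0.36, STAR 2.5.2b, featureCounts of Subread 1.5.2 and DESeq2 were used with GRCm38. The deposited signal of each gene and library is a read count divided by a size factor by the authors. All deposited values came out as whole reads within 0.01 read, and size factors ran from 0.962 to 1.128. Precision is limited by counting at low values. P-values set the difference between KOb/c and WT against the spread between the samples within these groups.

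The rule was applied to the deposited values. For KOb/c against WT, limma 3.58.1 was run in R 4.3.3 with a pseudocount of 1 on the log2 scale over genes with a mean of at least 10. P-values were adjusted by Benjamini-Hochberg, and calls were made under 0.05. Fold changes on this scale understate those of low genes. The recovered reads were also tested with edgeR 4.0.16 and DESeq2 1.42.0. The fits were tested on simulated data. Positions and transcripts came from GENCODE M21. The deposited values were grouped by the labels, and the library labelled KOb/c replicate 2 was kept in its labelled group.

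Genes named were Slc4a4, the 20 genes of the list with the largest gap ratio, those within 20 Mb of Slc4a4, those in a marker or pathway list, 3 on each side of the threshold and the 5 most correlated with Slc4a4. The remaining genes of the list, gene models and other markers were named after their values were seen. The genes, lists and motifs were chosen with earlier results of these data known.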

Additional observations from a re-analysis of the deposited data

How the results depend on the processing

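The number of genes on the list moved with each setting of the rule. In place of 23, there were 66 with a factor of 1.2, 7 with 1.5, 81 with a minimum mean of 10, 7 with one of 200, 39 with libraries rescaled to the same total and 12 beyond 95% Poisson intervals. It was 28 with quantile normalization, 24 with TMM factors and 22 after the length and GC correction. Leaving out 1 library at a time gave between 32 and 450 genes, the highest without KOb/c replicate 3, 71 without the library labelled KOb/c replicate 2, 54 without KOb/c replicate 1, and 51 and 40 without WT replicates 1 and 2; fewer libraries make the rule easier to meet. Without genes whose exons overlap another gene, a choice made after seeing the data, 12 remained. There were 69 gap ratios under the 3 scalings (same total, quantile, length and GC). Of these, 65 moved by less than the SD of the 4 other libraries on the log2 scale, and 4 moved further. While 0 turned below 1, this bound is looser than the factor of the rule. That SD is wide for a gene far higher in 1 library, such as Myh3, and a smaller move could still take a gene off the list. All 23 genes stayed within the rule with the same total. Quantile normalization kept 20, without Gm826, Pou2f2 and Tmem171, and the length and GC correction kept 16. Leaving out a library can only keep or raise a gap ratio; that of Tnnc2 reached 13.09 without KOb/c replicate 3.

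Between KOb/c and WT, 0 genes passed under each alternative except DESeq2 with its defaults, which called 1587, and limma without KOb/c replicate 2, which called 3; leaving out 1 library gave between 0 and 3. The cause of the difference between tools was not tested. A replicate block gave 0, also with the length and GC correction. Deviations of same-numbered KOb/c and WT libraries correlated at 0.227, 0.072 and -0.029, and KOb/c replicates 2 and 3 correlated best with another number, so the numbers were not taken as pairs.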
